A study of Pan troglodytes with 217 samples.

Results

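The LIN28 and DPPA genes and related factors are RNA-binding and chromatin proteins linked to pluripotency, and 10 of them were followed here in single cells of chimpanzee blastoids. LIN28A, LIN28B, L1TD1, TRIM71 and DND1 act on RNA. DPPA2, DPPA4, DPPA3, UTF1 and ZSCAN10 act on chromatin or transcription. The genes were listed by name, with earlier results of these data known, and all 10 symbols matched 1 identifier each among the 33729 Ensembl chimpanzee gene identifiers of the count table. They were described in the cells with at least 8000 detected genes, which were 88.9% of the cells in the table, with 24 cells left out.

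Blastoids are blastocyst-like structures grown from naive pluripotent stem cells (PSCs), the culture counterpart of the early epiblast. All cells came from 1 condition: chimpanzee (Pan troglodytes) naive induced PSCs, cultured in N2B27 with PD032590, XAV939, Gö6983, human LIF, Activin-A, IL6 and the EZH2 inhibitor EPZ-6438. Blastoids were formed first in PD, A83, LPA and the kinase inhibitor Y-27632, then in A83, LPA and Y-27632 without PD, and last in N2B27 alone. Most of the mural trophectoderm had been cut off by hand and was dissociated apart from the rest, for a longer time, and single cells were read by SMART-seq2, a full-length method without molecular identifiers. Neither the labels nor the methods give the blastoid, the line or the plate of a cell, so the cells formed 1 sample without replicates. Which cells, if any, came from the excised part is not given in the sources used here, so for trophectoderm-like cells this handling and the class cannot be told apart. No test, standard error or p-value was therefore computed, and every difference describes these cells.

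LIN28A and LIN28B bind precursors of the let-7 microRNA and block its maturation. LIN28A does so with the uridylating enzymes TUT4 and TUT7, which leads to decay of the precursor, and mature let-7 in turn acts on a set of growth genes. DPPA2 and DPPA4 form a heterodimer that binds chromatin at developmental promoters and at genes of early genome activation. DPPA3, also known as STELLA, is deposited in the egg and keeps UHRF1, the recruiter of the maintenance methyltransferase DNMT1, away from chromatin.

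Leiden clustering gave 4 clusters, named from the marker lists for epiblast, hypoblast and trophectoderm. There were 50 epiblast-like and 32 hypoblast-like cells, and the trophectoderm-like cells fell into clusters of 60 and 51 cells. Median depth was close to even, at 3951119, 3978822.5 and 3960857 reads per cell, and the median number of detected genes was 11736.5, 10993.5 and 10986. NANOG, a pluripotency factor of the epiblast, was at 244, 32.9 and 3.64 CPM (reads of the gene per 1000000 reads on genes, both summed over the cells of a class). GATA4, a hypoblast factor, was at 0.36, 92.2 and 0.21 CPM, and GATA3, a trophectoderm factor, at 70.4, 58.5 and 691 CPM. Marker lists were not exclusive: 3 or more trophectoderm markers reached 10 CPM in 49 of 50 epiblast-like cells, keratins among the highest, and 3 or more epiblast markers did in 20 of 32 hypoblast-like cells. Clustering without the members and all listed genes put every cell that passed in the same class. The border between the trophectoderm-like clusters was less fixed, since it moved to 72 and 39 cells when the cells were read in another order.

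The smaller trophectoderm-like cluster also carried markers of syncytiotrophoblast, the fused hormone-making layer of the placenta. Its 10 leading genes by fold, CCR7 first, held 0 of the trophectoderm markers but 1 syncytiotrophoblast marker, the hormone subunit gene CGA, along with the placental steroid enzyme genes CYP19A1 and HSD3B1. Of the 4 listed markers, CGA (858 against 18.5 CPM), SDC1 (78.5 against 2.47 CPM) and ERVFRD-1 (25.999 against 0.41 CPM) were at least 4-fold higher than in the larger cluster, and INSL4 was not (3.88 against 0.63 CPM). The summed level of the 4 ran from 0 to 14337 CPM (median 34.4) in the smaller cluster and from 0 to 583 CPM (median 0.22) in the larger, and 3 or more of them reached 10 CPM in 8 cells of the smaller and 0 of the larger. Trophectoderm markers were present in both, as 3 or more reached 10 CPM in all 51 and all 60 cells.

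L1TD1, DPPA2, DPPA3, DPPA4 and UTF1 were each at least 4-fold higher in epiblast-like than in trophectoderm-like cells on the scale of log2(pooled CPM + 1), where the added 1 CPM damps the folds of low genes. Against hypoblast-like cells this held for DPPA2, DPPA4 and UTF1. LIN28A went the other way, with 131.5 CPM in the epiblast-like class against 229.4 CPM in the trophectoderm-like class. DPPA3 had a hypoblast-like level, 1285 CPM, close to the epiblast-like level of 1353 CPM. TRIM71 was also close in these classes, at 21.7 and 26.6 CPM. In no member did the classes separate fully, and single cells of each class overlapped in every comparison. The share of all genes with such overlap was not computed.

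**Figure D1:**
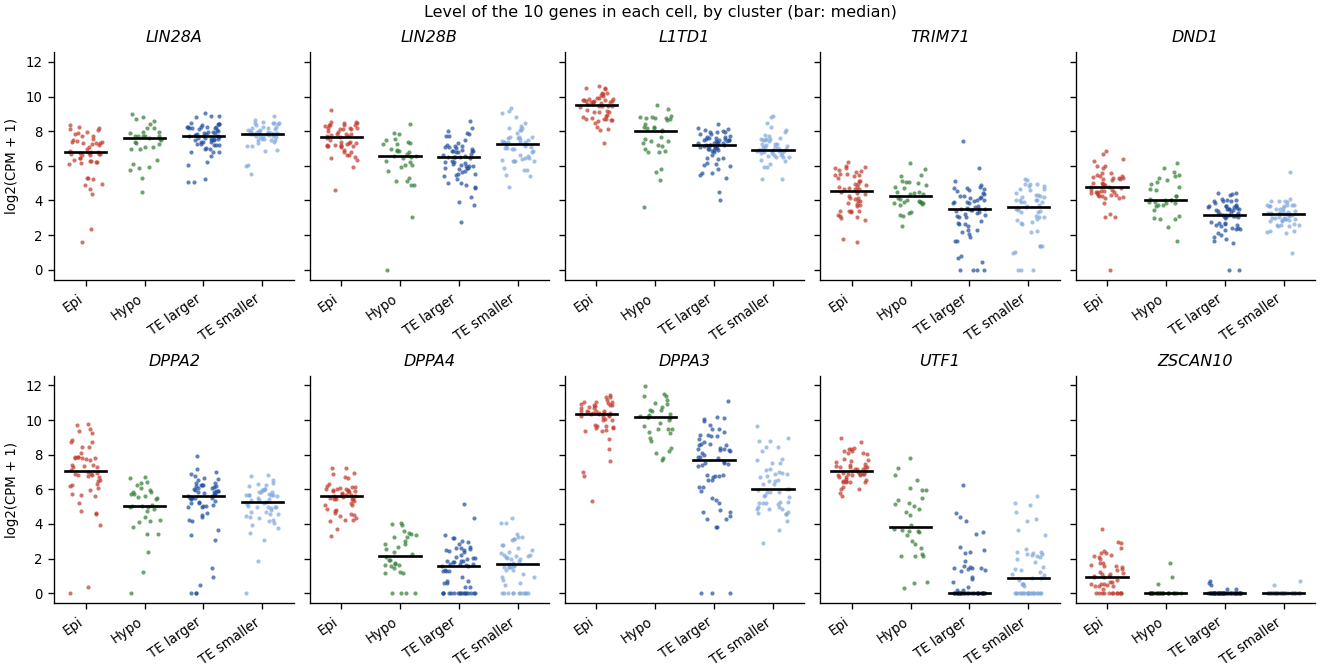
Each point is 1 cell and gives the log2(CPM + 1) of 1 gene, with the median as a bar, in 50 epiblast-like (Epi) cells, 32 hypoblast-like (Hypo) cells and the larger (60 cells) and smaller (51 cells) trophectoderm-like (TE) clusters. UTF1 and DPPA4 lie highest in the epiblast-like cells, DPPA3 is high in both epiblast-like and hypoblast-like cells, and LIN28A lies lowest in the epiblast-like cells.

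LIN28A, a cold-shock domain protein, was read in every cell of every class. Its per-cell level had a lowest value of 2.03, a median of 109.2 and a highest value of 329 CPM in epiblast-like cells. The corresponding values were 21.3, 191.5 and 511 CPM in hypoblast-like cells and 31.9, 225 and 525 CPM in trophectoderm-like cells. Epiblast-like cells were thus low for LIN28A without losing it: 48 of 50 remained at 10 CPM or more. The difference of log2(pooled CPM + 1) was -0.80 against trophectoderm-like and -0.64 against hypoblast-like cells, and of all pairs of 1 epiblast-like and 1 trophectoderm-like cell the first was higher in 21.4%. Both differences were under 4-fold, and they kept their sign in 17 of 17 and 15 of 15 alternatives. With only the cells that had fewer than 5 markers of a second lineage at 10 CPM, 22 epiblast-like and 10 hypoblast-like cells among them, LIN28A had -0.26 for epiblast-like over hypoblast-like cells, and -0.78 in place of -0.15 for hypoblast-like over trophectoderm-like cells.

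LIN28B, the paralog, was highest in the epiblast-like class. In epiblast-like cells it ranged from 22.9 to 597 CPM with a median of 199.7 CPM. In hypoblast-like cells it ranged from 0 to 342 CPM, with a median of 93.8 CPM and 1 cell without a read, and in trophectoderm-like cells from 5.64 to 652 CPM with a median of 111.5 CPM. The pooled level was 216.1, 100.1 and 145.3 CPM in the same order of classes. The trophectoderm-like clusters differed from each other: the smaller, which was led by CCR7, had 191.3 CPM and the larger 101.9 CPM. The log2 difference of 0.90 was below the threshold, and it lay between 0.70 and 1.07 in the 15 alternatives that gave a value. It was 0.75 without the 8 cells that held 3 or more syncytiotrophoblast markers. The part of these markers in the difference beyond those cells was not tested.

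With the paralogs placed differently among the classes, the share of LIN28A in the LIN28 reads of a cell differed between classes. It had a median of 34.9% in epiblast-like cells (range 2.23% to 74.8%), 64.6% in hypoblast-like cells (15.7% to 100%) and 68.5% in trophectoderm-like cells (17.9% to 95.2%). LIN28A held more reads than LIN28B in 14 of 50 cells of the epiblast-like class, 24 of 32 of the hypoblast-like class, and 81.1% of the trophectoderm-like class. The median was 73.2% in the larger and 62.7% in the smaller trophectoderm-like cluster. This is a share of reads, not of transcripts, since transcript lengths were not used here. It can be compared between cells but not read as the more abundant paralog.

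**Figure D2:**
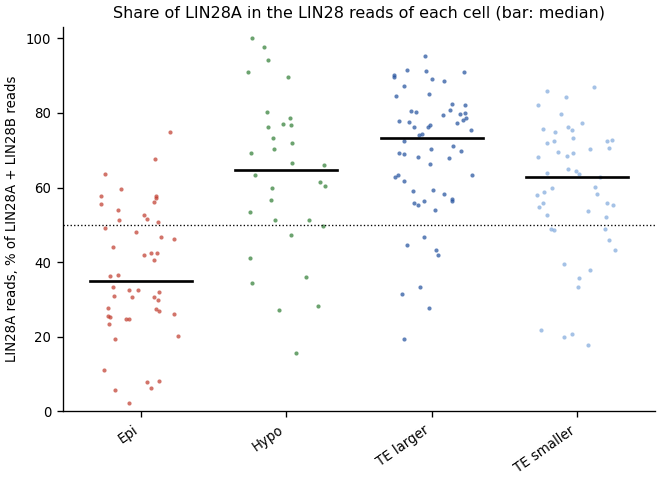
Each point is 1 cell and gives the reads of LIN28A as a percentage of the reads of LIN28A and LIN28B together, with the median as a bar and a dotted line at 50%. The medians are 34.9% in the epiblast-like cells, 64.6% in the hypoblast-like cells, and 73.2% and 62.7% in the larger and smaller trophectoderm-like clusters.

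L1TD1, an RNA-binding protein derived from a LINE-1 open reading frame, was read in every cell of every class. Its lowest, median and highest levels were 160.6, 733 and 1582 CPM in epiblast-like cells. They were 11.1, 257.3 and 722 CPM in hypoblast-like and 14.9, 133.8 and 476 CPM in trophectoderm-like cells. Of the 50 epiblast-like cells, 36 lay above the highest trophectoderm-like cell and 25 above the highest hypoblast-like cell. The pooled level was 4.90 times that of trophectoderm-like cells (log2 difference 2.29) and 2.92 times that of hypoblast-like cells (1.54).

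TRIM71, a ubiquitin ligase and RNA-binding repressor that is itself a let-7 target, differed by less than 2-fold. Its range was 2.01 to 73.6 CPM in epiblast-like cells (median 22.7), 4.65 to 69.2 CPM in hypoblast-like cells (18.2) and 0 to 170.8 CPM in trophectoderm-like cells (10.5). The highest value of all was thus in a trophectoderm-like cell, which gave 9.56% of the TRIM71 reads of that class. The log2 differences were 0.87 for epiblast-like and 0.59 for hypoblast-like over trophectoderm-like cells, and 0.28 for epiblast-like over hypoblast-like cells.

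DND1, a germ-cell RNA-binding protein that modulates microRNA access, was graded across the classes. Its levels were 0 to 114.6 CPM in epiblast-like cells (median 26.5), 2.21 to 70.1 CPM in hypoblast-like cells (15.4) and 0 to 48.1 CPM in trophectoderm-like cells (8.09). The pooled ratio of epiblast-like to trophectoderm-like cells was 4.18, but the log2 difference with the pseudocount of 1 CPM was 1.94, just under the threshold. In the RefSeq annotation of another chimpanzee assembly the DND1 gene overlaps WDR55. WDR55 was at 27.3, 22.9 and 20.0 CPM in the 3 classes, and reads in the overlap cannot be told apart without strand.

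DPPA2 was highest in part of the epiblast-like cells. It ranged from 0 to 883 CPM with a median of 130.9 CPM in epiblast-like cells, against 0 to 102.6 CPM (32.4) in hypoblast-like cells and 0 to 241.9 CPM (44.5) in trophectoderm-like cells. The coefficient of variation among epiblast-like cells was 1.02, and 11 of them lay above the highest trophectoderm-like cell. The pooled ratio to trophectoderm-like cells was 4.70 (log2 difference 2.21). With the median over cells in place of the pooled level the difference was 1.54, and 1.98 against hypoblast-like cells, so that DPPA2 no longer reached 4-fold in either. Almost all cells had a read of DPPA2, namely 49 of 50 in the epiblast-like class, 31 of 32 in the hypoblast-like class and 96.4% in the trophectoderm-like class.

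DPPA4, the partner of DPPA2, followed the epiblast-like class much more sharply. Its lowest, median and highest levels were 8.89, 47.2 and 151.05 CPM in epiblast-like cells, 0, 3.51 and 15.8 CPM in hypoblast-like cells and 0, 2.11 and 33.96 CPM in trophectoderm-like cells. Of the epiblast-like cells, 48 of 50 lay above the highest hypoblast-like cell and 35 of 50 above the highest trophectoderm-like cell. The pooled ratios were 10.9 and 15.3. DPPA4 was nonetheless read in 28 of 32 hypoblast-like cells (87.5%, exact 95% interval 71.01% to 96.5%) and 83 trophectoderm-like cells (74.8%, 65.6% to 82.5%). At 10 CPM or more it was found in 49, 5 and 5 cells. Among trophectoderm-like cells its level had a rank correlation of 0.49 with the number of genes detected in the cell. The proteins act as a pair, but the ratio of the epiblast-like to the hypoblast-like level was 5.63 for DPPA2 and 10.9 for DPPA4.

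DPPA3 had a different distribution from the other DPPA genes. Its lowest, median and highest levels were 39.6, 1326 and 2790.0 CPM in epiblast-like cells and 207.8, 1140.1 and 4018 CPM in hypoblast-like cells. They were 0, 109.7 and 2199.9 CPM in trophectoderm-like cells. Between epiblast-like and hypoblast-like cells the log2 difference was 0.07, and 2 of 15 alternatives had the other sign. Against trophectoderm-like cells the pooled ratios were 6.18 and 5.86. The trophectoderm-like cells varied widely among themselves, with a coefficient of variation of 1.36 and 3 cells without a read. Within them the larger cluster had 327 CPM and the smaller, CCR7-led cluster 104.5 CPM, a log2 difference of -1.64 for smaller over larger. This was the largest difference of any member between these clusters in absolute size, and it lay between -1.79 and -1.38 in the 15 alternatives that gave a value. It was -1.79 without the 8 cells with 3 or more syncytiotrophoblast markers.

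UTF1, a chromatin-associated factor of undifferentiated cells, had the largest difference of log2(pooled CPM + 1) of any member between epiblast-like and trophectoderm-like cells. All 50 epiblast-like cells had at least 47.6 CPM, with a median of 130.3 and a highest value of 499.6 CPM. Hypoblast-like cells ranged from 0.21 to 226.4 CPM with a median of 13.4 CPM, and trophectoderm-like cells from 0 to 74.6 CPM with a median of 0.13 CPM. Of the epiblast-like cells, 45 of 50 lay above the highest trophectoderm-like cell. A read was found in 57 trophectoderm-like cells (51.4%, exact 95% interval 41.7% to 60.9%) and 10 CPM or more in 12 of them. The log2 difference of epiblast-like over trophectoderm-like cells was 5.21, above that of 99.8% of all genes compared. The hypoblast-like level of 35.8 CPM rested in part on a few cells, since 24.99% of its reads came from 1 cell, and in the larger trophectoderm-like cluster 46.6% of the reads did. Trophectoderm-like cells with 3 or more markers of a second lineage at 10 CPM (35 cells) had 9.05 CPM of UTF1, and the other 76 cells had 1.18 CPM. The part of mixed or joined cells in this was not tested.

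ZSCAN10, a zinc-finger transcription factor of pluripotent cells, was the only member close to the limit of detection in every class. In the epiblast-like class 38 of 50 cells had a read (76%, exact 95% interval 61.8% to 86.9%). In the hypoblast-like class 3 of 32 cells did (9.38%, 1.98% to 25.02%), and in the trophectoderm-like class 7 cells did (6.31%, 2.57% to 12.6%). The highest single value was 12.1 CPM, in an epiblast-like cell. Pooled levels were 1.78 CPM (exact 95% Poisson interval 1.61 to 1.97), 0.12 CPM (0.07 to 0.19) and 0.02 CPM (0.01 to 0.04), from 383, 15 and 12 reads. The ratio of epiblast-like to trophectoderm-like levels was 76.6, the highest of the members, and that to hypoblast-like levels was 15.3. With the pseudocount of 1 CPM the log2 differences were 1.44 and 1.32, and with 0.1 CPM they were 3.93 and 3.12. After thinning of all cells to 1 depth these counts were 34 of 48, 2 of 25 and 6 cells, so the order of the shares was the same at even depth. The Poisson intervals cover counting error only, and amplified copies of a molecule each add a read. The intervals of shares treat the cells of the 1 sample as independent draws.

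The number of members present together in a cell differed by class. At 10 CPM or more, epiblast-like cells held 7 to 10 of them (median 9), hypoblast-like cells 5 to 9 (median 7.5) and trophectoderm-like cells 4 to 9 (median 6). At least 8 members were found in 46 of 50 cells of the epiblast-like and 16 of 32 of the hypoblast-like class, and in 7.21% of the trophectoderm-like class. With 1 read as the criterion the classes differed much less, and 10, 9 and 9 members were read in at least 50% of the cells of a class. The member missing from the hypoblast-like and trophectoderm-like counts was ZSCAN10. UTF1 was close to the limit in trophectoderm-like cells, with a read in 51.4% of them, in 49% after thinning to 1 depth and in 41.7% of the larger cluster. These counts were not made over all genes, so they have no background beside them. The median number of detected genes was also highest in the epiblast-like class.

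The comparisons between classes asked how these genes separate the lineages, as differences of log2(pooled CPM + 1). A difference counted when it reached 4-fold, 2 on this scale, with at least 1 CPM in one of both classes. In epiblast-like over trophectoderm-like cells, 5 of 10 members were higher by this rule (L1TD1, DPPA2, DPPA3, DPPA4 and UTF1), beside 6.38% of the 13003 genes compared. None was lower, beside 2.98% of genes. At 2-fold, 7 were higher and 0 lower, beside 18.9% and 9.3% of genes. The median difference was 2.08 for the members and 0.13 for all genes. Relative to size factors from the median of gene ratios, all differences of epiblast-like over trophectoderm-like cells shifted by -0.17, and 5 members still reached 4-fold. With the larger trophectoderm-like cluster alone in place of both, 5 did, DPPA2 (2.02) and DPPA3 (2.04) by a small margin.

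In hypoblast-like over trophectoderm-like cells, 2 of 9 members with at least 1 CPM were higher, DPPA3 (2.55) and UTF1 (3.01), beside 3.48% of 12480 genes. No member was lower, beside 2.98% of genes, and at 2-fold 3 were higher and 0 lower, beside 11.5% and 10.4% of genes. DND1 came next with 1.18, and the median was 0.59 for the members and -0.02 for all genes. The summed level of the 10 epiblast markers also differed between these classes. It was 84.1 to 1910 CPM (median 469.97) in hypoblast-like cells and 0 to 690 CPM (median 52.5) in trophectoderm-like cells, with ARGFX alone at 0 in the hypoblast-like class. Whether it has a part in the levels of DPPA3 and UTF1 was not tested. With only the cells that had fewer than 5 markers of a second lineage at 10 CPM, 10 of them hypoblast-like, both genes still reached 4-fold. Over the larger trophectoderm-like cluster alone UTF1 (3.16) did and DPPA3 (1.97) did not, and with a pseudocount of 10 CPM UTF1 (1.75) did not.

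In epiblast-like over hypoblast-like cells, 3 of 10 members were higher, DPPA4 (3.21), DPPA2 (2.47) and UTF1 (2.204), beside 2.99% of 12878 genes. With a pseudocount of 10 CPM UTF1 had 1.963 and no longer counted. L1TD1 (1.54), ZSCAN10 (1.32, set by the pseudocount at its low level) and LIN28B (1.10) lay between 2-fold and 4-fold on this scale, so that 6 were higher at 2-fold, beside 13.7%. None was lower, beside 1.48% of genes at 4-fold and 5.41% at 2-fold. The median was 1.21 for the members and 0.17 for all genes. Between the smaller and larger trophectoderm-like clusters 0 of 9 members reached 4-fold in either direction, beside 2.03% of 12093 genes higher in the smaller and 0.959% higher in the larger. At 2-fold only DPPA3 did, in the larger cluster, beside 5.31% of genes.

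**Figure D3:**
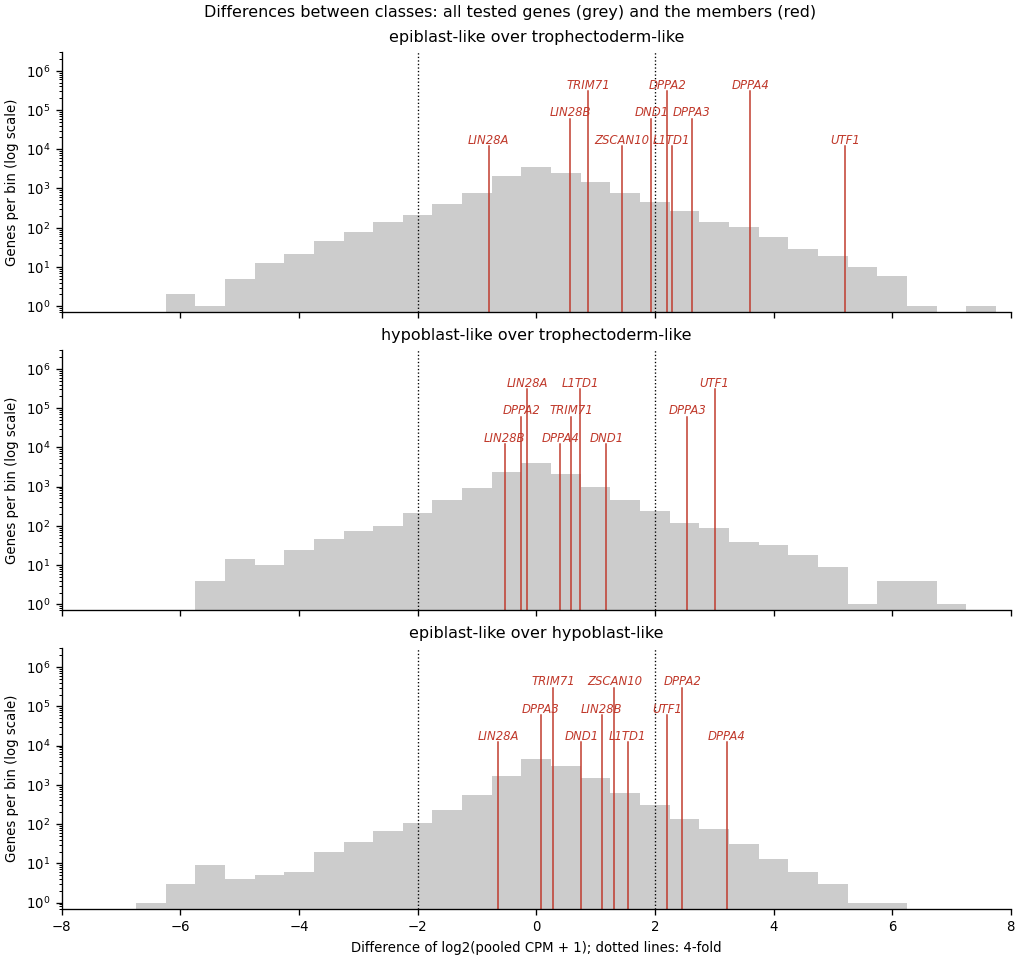
Grey bars count all genes compared per bin of 0.5 on a logarithmic axis, by their difference of log2(pooled CPM + 1) between a pair of classes, and red lines mark the members at their own difference. From epiblast-like over trophectoderm-like cells (top) to hypoblast-like over trophectoderm-like (middle) and epiblast-like over hypoblast-like cells (bottom), 5, 2 and 3 members lie past the dotted line at 4-fold.

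Within a class the members varied together only in part. Over the 50 epiblast-like cells, Spearman's rho of CPM over the 45 pairs of members had a median of 0.24, and 41 pairs were positive. Pairs of other genes were not computed in any class, so the medians and counts of pairs have no background. The highest were 0.60 for L1TD1 with DPPA4 and 0.60 for UTF1 with ZSCAN10, followed by 0.54 for DPPA2 with DPPA4. LIN28B had 0.49 with L1TD1, while LIN28A had 0.04 with it and -0.27 with UTF1, the lowest of all pairs. The paralogs LIN28A and LIN28B had 0.16, -0.06 and 0.17 in the 3 classes. These are descriptions over cells of 1 sample that share preparation. With the reads per cell, DND1 and DPPA2 had 0.41 and 0.39 in this class, the highest of the members, and L1TD1 and DPPA4 had 0.04 and 0.15. The part of depth in the pairs was not tested.

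In the hypoblast-like cells the median over 36 pairs without ZSCAN10 was 0.12, and UTF1 was the hub of the higher values. It had 0.60 with DPPA4, 0.55 with DND1 and 0.53 with DPPA2 over 32 cells. The DPPA2 and DPPA4 pair had 0.49 there and 0.17 in the trophectoderm-like cells. In the latter class the median was 0.06 and the highest value was 0.37, for DPPA2 with DPPA3.

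**Figure D4:**
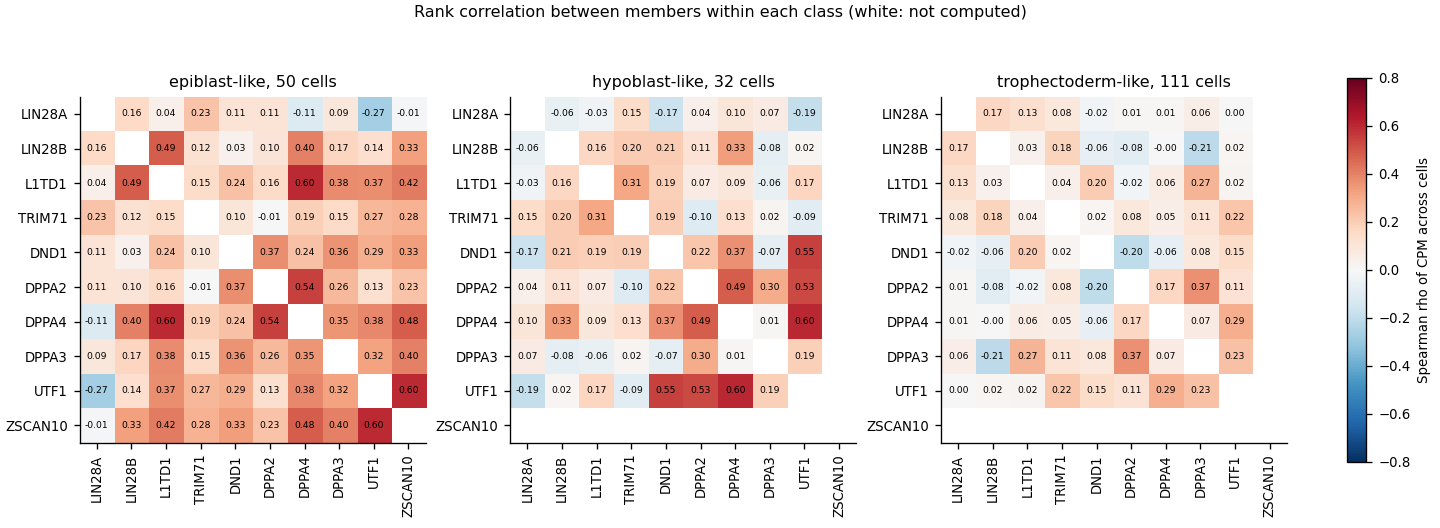
Each square gives Spearman's rho of CPM between a pair of members across the cells of 1 class, from blue (negative) to red (positive), with white where none was computed (ZSCAN10 outside the epiblast-like cells). Positive values prevail in the epiblast-like cells with a median of 0.24, UTF1 carries the highest values in the hypoblast-like cells, and most values lie near 0 in the trophectoderm-like cells, where the median is 0.06.

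Lineage factors set beside the members gave the clearest gradients in the hypoblast-like cells. There UTF1 had a rho of 0.63 with NANOG and 0.57 with POU5F1, the gene of OCT4, but -0.67 with FOXA2, a marker of mature hypoblast, and -0.57 with GATA4. DND1 and DPPA2 had -0.51 and -0.49 with FOXA2, and DPPA3 had 0.56 with POU5F1. LIN28A had 0.38 with GATA4 in the same cells, but 0.13 with FOXA2 and -0.12 with PDGFRA, another hypoblast marker. UTF1 had -0.49 with PDGFRA and DND1 had 0.04. FOXA2 itself was read in 15 of the 32 cells. High UTF1 thus went with higher NANOG and POU5F1 and lower FOXA2, GATA4 and PDGFRA within this class.

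In the epiblast-like cells, DPPA3 had 0.55 with NANOG and UTF1 had 0.55 with POU5F1. The trophectoderm factor GATA3 had -0.53 with DPPA4 and -0.48 with UTF1 but 0.44 with LIN28A. Values were weaker for CDX2, another trophectoderm marker, at -0.06, -0.12 and 0.19 with DPPA4, UTF1 and LIN28A. For the syncytiotrophoblast marker CGA they were -0.26, -0.19 and 0.12. In the trophectoderm-like cells DPPA3 had 0.57 with POU5F1, and 0.57 and 0.54 within the larger and the smaller cluster. POU5F1 was at 87.1 and 54.3 CPM in these clusters.

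The genes most like each member across all cells that passed were ranked by Spearman's rho among 11262 genes with a symbol and a read in at least 50 cells (11263 for ZSCAN10). Differences between the classes enter such a ranking. NANOG came first for UTF1 (0.86), DPPA4 (0.76) and L1TD1 (0.73), and POU5F1 came first for DPPA3 (0.78). RCBTB1 (0.84) and TBCD (0.83) followed for UTF1, PYGB (0.78) and CDA (0.77) for DPPA3, LDB2 (0.74) and RCBTB1 (0.73) for DPPA4, and CACNA2D1 (0.71) and TENT5B (0.71) for L1TD1. ZSCAN10 was closest to LDB2 (0.74), OLAH (0.72) and HEY2 (0.71), and DND1 to TBCD (0.69), CD200 (0.67) and USP28 (0.66).

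The remaining members had weaker likeness to any gene. LIN28A was closest to KHDRBS1 (0.62), NHERF1 (0.57) and TAGLN2 (0.56), each of which was lowest in the epiblast-like cells. LIN28B was closest to NREP (0.49), TNFAIP6 (0.48) and IGF2BP3 (0.46), an RNA-binding protein and let-7 target. DPPA2 was closest to CRIPTO3 (0.52), ABHD12B (0.51) and NDUFS5 (0.51), and TRIM71 to SCNN1A (0.47), XPO7 (0.46) and B3GNT7 (0.46). Over the 50 epiblast-like cells alone, 0 of the 3 genes recurred among the 3 closest for each of the 10 members. Some likenesses were nonetheless as high within that class, at 0.64 for LIN28B with NREP and 0.49 with TNFAIP6, while DPPA3 with POU5F1 had 0.15. ZSCAN10 had 0.52 with LDB2 and 0.53 with OLAH there, and the closest gene to DND1 was its overlapping neighbour WDR55 (0.60).

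Genes of the pathways around the members were taken from lists chosen by function, with the same 4-fold rule. Over the 5 lists, 39 genes had at least 1 CPM in epiblast-like or trophectoderm-like cells, and 2 of them (5.13%) were higher and 3 (7.69%) lower in epiblast-like cells, beside 6.38% and 2.98% of all genes. Of the let-7 pathway and LIN28 partners, 0 of 11 reached 4-fold between any of the classes, and the median difference of epiblast-like over trophectoderm-like cells was -0.04. TUT4, the uridylating partner of LIN28A, had the largest difference, with 127.7, 49.6 and 47.98 CPM in the 3 classes (1.39). Its paralog TUT7 had 28.9, 21.8 and 43.4 CPM (-0.57), the exporter XPO5 had -0.47 and the DICER1 cofactor TARBP2 had 0.45. The let-7 RNAs themselves are too short for this method and were not measured.

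Of the genes known as let-7 targets, 9 of 10 had at least 1 CPM, 1 was higher and 1 lower in epiblast-like than in trophectoderm-like cells. IGF2BP2 was higher (120.6, 34.5 and 23.6 CPM, 2.31) and its paralog IGF2BP1 lower (19.5, 97.2 and 131.7 CPM, -2.69), both of them RNA-binding proteins. The transcription factor ARID3A had -1.71 and the cyclin gene CCND1 0.70. The median of the list was 0.29. HMGA2 stayed under 1 CPM in every class, with a highest pooled level of 0.50 CPM. Of the 9 genes, 7 had a difference above 0, beside 57.7% of all genes. In the smaller over the larger trophectoderm-like cluster all 9 lay above 0, beside 54.1% of all genes, with a median of 0.89 against 0.05. TRIM71, a target counted among the members, had -0.01. The syncytiotrophoblast markers CGA (5.46), SDC1 (4.52) and ERVFRD-1 (4.26) differed more in the same comparison. Without the 8 cells with 3 or more of these markers, 8 of 9 targets lay above 0 with a median of 0.87, and the part of the markers beyond those cells was not tested. IGF2BP3 (147.1 against 29.1 CPM, 2.30) was the 1 target that reached 4-fold there, beside 2.03% of all genes, and ARID3A (1.80), CCND1 (1.28) and MYCN (1.02) came next. Over the 5 lists together 24 of 39 genes lay above 0 in this comparison, with 1 of them 4-fold higher in the smaller and 2 in the larger cluster, beside 2.03% and 0.959% of all genes. The 2 were the Piwi gene PIWIL4 (-2.22) and ESRRB (-2.52), and of the germ-cell factors 1 of 5 lay above 0.

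Of the DPPA3 partners and DNA methylation genes, 0 were higher and 1 of 7 was lower in epiblast-like cells. That gene was the demethylating enzyme TET2, at 67.4, 90.4 and 407 CPM (-2.58), which was also lower in hypoblast-like than in trophectoderm-like cells (-2.16). UHRF1 had 57.9, 22.8 and 23.3 CPM (1.28), TET3 had -1.27 and the de novo methyltransferase DNMT3B had -0.94. The list's median was 0.56. DNMT1 has 2 identifiers in the table, which together stayed under 1 CPM in each of the 3 classes, and its level is uncertain where reads were split between copies.

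Of the RNA-binding factors of germ cells, companions of DND1, 5 of 10 had at least 1 CPM and 0 of these reached 4-fold between epiblast-like and trophectoderm-like cells. PIWIL4 had 0.79, 2.08 and 5.37 CPM (-1.83), NANOS1 16.6, 4.09 and 7.38 CPM (1.07) and TDRD12 5.87, 2.96 and 2.44 CPM (0.99). The germ-cell genes DAZL, NANOS2, NANOS3 and DDX4 stayed under 1 CPM in all 3 classes.

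Of the other early embryo and maternal factors, 7 of 13 had at least 1 CPM, 1 was higher and 1 lower, with a median of 0.09. DPPA5, an RNA-binding protein of naive cells, was higher in epiblast-like cells (7.71, 2.37 and 0.20 CPM, 2.87), from 2 identifiers summed. ZFP42, the gene of REX1, was lower (23.01, 56.5 and 112.1 CPM, -2.24). NLRP7, a maternal effect gene, had 1.39, and the orphan receptor gene ESRRB had -0.82. ESRRB was lower in epiblast-like than in hypoblast-like cells (2.03 against 15.6 CPM, -2.46). Over the 5 lists, 1 of 38 genes was higher and 2 were lower in this comparison, beside 2.99% and 1.48% of all genes. Apart from ESRRB these were let-7 targets, 1 in each direction.

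**Figure D5:**
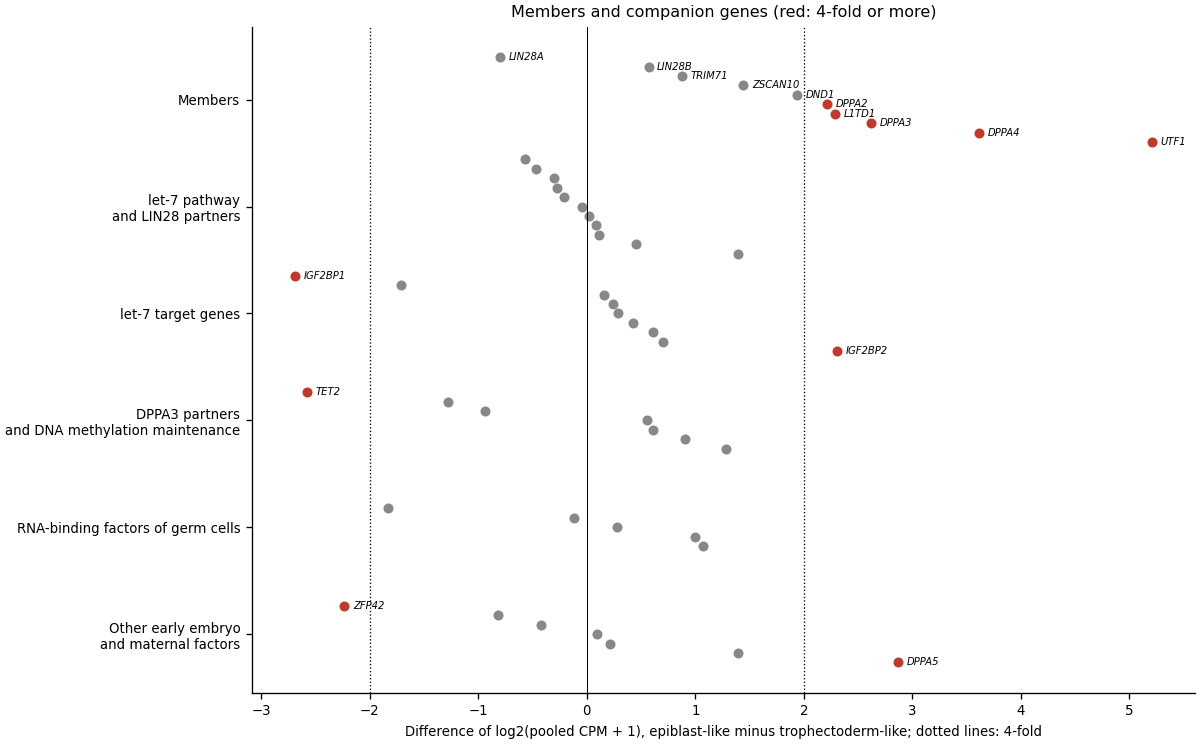
Each point is 1 gene with at least 1 CPM, placed by its difference of log2(pooled CPM + 1) between epiblast-like and trophectoderm-like cells, for the 10 members and 5 companion lists, in red where it reached 4-fold (dotted lines). Among the companions only IGF2BP2 and DPPA5 are past the right line and only IGF2BP1, TET2 and ZFP42 past the left, against 5 members past the right line.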

How the data were processed

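The authors deposited read counts per gene and cell, not normalized, for 217 cells (SMART-seq2). According to the paper's methods, reads were trimmed with FastP, aligned with STAR to the chimpanzee genome and counted on Ensembl genes. The submitters' processing notes instead name Trim Galore 0.6.6, STAR 2.7.7a and GRCh38. The identifiers are chimpanzee ones, and the disagreement could not be settled. Whether counting used strand is not given in the sources used here.

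The members and all lists were chosen with earlier results of these data known. Symbols came from a table pairing identifiers with names, and identifiers sharing a symbol were summed for listed genes. TDGF1 was not matched. Gene neighbours came from RefSeq (NHGRI_mPanTro3-v2.0) and no coordinates were used.

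Cells with under 4000 reads or 8000 genes, and for clustering genes in under 20 cells, were left out, and 193 of 217 cells remained (111 of them trophectoderm-like). The paper states the same cut-offs but kept fewer cells, which it took from several blastoids. Scanpy 1.11.5 (Python 3.11.15) normalized to the median total, took log1p, and computed 50 components, 30 neighbours and Leiden clusters (leidenalg 0.10.2, resolution 1, seed 0). Clusters were named by their highest mean standardized marker level, with at least 3 markers at 1 CPM. Totals ran from 1679888 to 25630392 reads in passing cells. CPM have exact Poisson and shares exact Clopper-Pearson 95% intervals (scipy 1.17.1). Thinning used 2532312 reads per cell and left out 20 shallower cells. Doublets were not called, but cells holding second-lineage markers were counted. Named genes were the members, up to 4 genes per companion list with the largest epiblast-like over trophectoderm-like difference, and the 3 genes most like each member. HMGA2, DNMT1, WDR55, FOXA2, CCR7, CDX2, ARGFX, PDGFRA, IGF2BP3, MYCN, CGA, CYP19A1, HSD3B1 and the other syncytiotrophoblast markers, and the germ-cell genes under 1 CPM were named after their values were seen. The 4-fold rule, the thinning and the Poisson intervals were tested on simulated data. Clustering, the naming of clusters and rank correlations were not. Alternatives covered filters, clustering, levels, scaling, pseudocount, thresholds and mixed cells. The values of 1 gene among the RNA-binding factors of germ cells, and the median of that list, are not reported here.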

Additional observations from a re-analysis of the deposited data

Results flagged for a closer look

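The 24 cells left out by the filter on reads and genes were also examined, and they carried reads of the members. They had a median of 1660767 reads per cell, between 5792 and 3863814. All 10 members had more than 3 reads over these cells, the limit that a count of 0 allows, and for that reason they are listed here. The share of all genes past this limit was not computed. L1TD1 was at 329, DPPA3 at 316, LIN28B at 143.5, LIN28A at 102.7 and UTF1 at 48.97 CPM. DPPA2 (27.2), DPPA4 (13.97), DND1 (10.9) and TRIM71 (10.1 CPM) followed, each read in 11 to 16 of the cells, and ZSCAN10 had 5 reads in 3 cells. These cells were put in no class, so their values enter no comparison.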

How the results depend on the processing

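The counts of members at 4-fold were 5, 2, 3 and 0 in the comparisons of epiblast-like with trophectoderm-like, hypoblast-like with trophectoderm-like, epiblast-like with hypoblast-like cells and the trophectoderm-like clusters. Of 84 alternative values of these counts and of the count of 10 members read in epiblast-like cells, 77 stayed within 1.5 times. With a pseudocount of 10 CPM, 1 member (DPPA3) was higher in hypoblast-like than in trophectoderm-like cells, and 2 (without UTF1) in epiblast-like than in hypoblast-like cells. At 2-fold, 6 members were higher in epiblast-like than in hypoblast-like cells and 1 differed between the trophectoderm-like clusters. At 8-fold, 2 were higher in epiblast-like than in trophectoderm-like cells, 1 (UTF1) in hypoblast-like than in trophectoderm-like cells and 1 (DPPA4) in epiblast-like than in hypoblast-like cells. A pseudocount of 0.1 CPM gave 7 in the first of these. With the larger trophectoderm-like cluster alone, 1 member (UTF1) was higher in hypoblast-like cells. Of 640 alternative differences of single members 295 moved by more than counting error, and 0 of those at 4-fold changed sign.

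Alternatives added after seeing the data were the order of the cells, thinned levels, 8-fold outside the first comparison, the larger trophectoderm-like cluster alone, and leaving out cells with 5 markers of a second lineage or 3 of syncytiotrophoblast (the companion lists included). The planned rule of 3 such markers left 1 epiblast-like and 0 hypoblast-like cells, so those comparisons were not run. A resolution of 1.5 or 15 neighbours did not give 2 trophectoderm-like clusters, so their comparison has no value there. No paired analysis was possible because the cells form 1 sample without replicates. Depth limits ZSCAN10, at 12 reads in the trophectoderm-like class, and DPPA4 in trophectoderm-like cells had a rho of 0.28 with the reads per cell.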
